A study of Homo sapiens with 25 samples.

Results

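The peaks described here are the CTCF-bound regions of NCI-H2087, a human lung adenocarcinoma cell line, sorted by whether they coincide with peaks of the histone marks H3K4me1 and H3K27ac in the same line. All 61072 CTCF peaks on chromosomes 1 to 22 and X were taken, out of 518394 peaks of 11 antibodies in NCI-H2087 and 1257083 peaks in all 20 lists of the series. A CTCF peak counted as marked when at least 1 bp of it overlapped a peak of the mark, which gave 4 classes: both marks, H3K4me1 only, H3K27ac only and neither. "Unmarked" below means only that neither of these 2 lists has a peak there. The series holds chromatin immunoprecipitation sequencing of untreated lung adenocarcinoma cells grown in RPMI medium with fetal bovine serum, fixed with formaldehyde and sonicated, from NCI-H2087 and 3 other lines (HCC364, NCI-H358 and NCI-H441). Every antibody was used on a single library of a line, which gave a peak list each, and the 5 input libraries have no file analysed here. There is no replicate, so no test between classes was made. Intervals in brackets are exact 95% binomial intervals (Clopper-Pearson), or order-statistic intervals for medians, and cover counting error only, since neighbouring peaks share 1 library. CTCF was profiled in NCI-H2087 alone.

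CTCF is a zinc finger protein that binds a long GC-rich DNA motif and halts the cohesin complex as it extrudes chromatin loops, so that its sites often lie at loop anchors, domain boundaries and insulators. H3K4me1 (monomethylated lysine 4 of histone H3) marks enhancers and the flanks of promoters, and H3K27ac (acetylated lysine 27) marks active enhancers and promoters. NKX2-1 is the lineage transcription factor of lung epithelium and of many lung adenocarcinomas. As a check of the line, 10 of 10 epithelial marker genes had an H3K27ac peak within 1 kb of an end and 9 of 10 an H3K4me3 peak (all but SFTPB), against 58.1% and 65.9% of all 19974 protein-coding genes. In the longer list of 16 lung and epithelial genes used below, 15 had H3K27ac (all but ABCA3) and 14 had H3K4me3 (all but SFTPB and SFTPA1). Of 6 markers of other cells, CD3E and COL1A1 had H3K27ac and COL1A1 had H3K4me3.

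Part of the CTCF motif could be read at promoters, where reference sequence was at hand. The letters CAGGNGGC, a stretch of the known CTCF core, were searched on both strands of 34789 RefSeq promoter windows (GRCh38.p14, 250 bases before to 50 bases after a start site), and no other motif was searched. They occurred in 13.1% of all windows [12.8, 13.5], in 27.4% of the 2209 windows that held a CTCF summit [25.6, 29.3] and in 12.1% of those that held none [11.8, 12.5]. Windows with a CTCF summit were also richer in GC, with a mean of 62.0% against 57.2% without one. Where letters and summit shared a window (606 promoters), a median of 22 bp lay between them. The share by class was 27.2% of 346 promoters with a both-mark summit [22.5, 32.2], 24.5% of 98 with an H3K4me1-only summit [16.4, 34.2], 25.7% of 1203 with an H3K27ac-only summit [23.2, 28.3] and 31.9% of 562 with an unmarked summit [28.0, 35.9]. The intervals of the 4 classes all overlap. When CTCF peaks were divided into 4 equal groups by fold enrichment (quartiles), the share was 20.0% in the lowest quartile and 33.0% in the highest.

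For each class, the promoter with these letters that holds the strongest CTCF summit is printed below to show what such a site looks like, 5′ to 3′ on the gene's strand, with every match of CAGGNGGC or its reverse complement in capitals. The both-mark example is the promoter of CCDC59, on chr12:82358756-82359055 (minus strand), where the CTCF fold is 130.2 and the letters lie 79 bp from the summit. There a stretch that differs from these letters only in its first base (tagggggc) lies nearer the summit and is not in capitals. The H3K4me1-only example is CD8A, which encodes a T cell co-receptor chain, on chr2:86808347-86808646 (minus strand), with a fold of 118.7 and the match on the reverse strand 7 bp from the summit. The H3K27ac-only example is ACBD4, an acyl-CoA binding domain gene, on chr17:45135437-45135736 (plus strand), with a fold of 136.6 and 24 bp to the summit. The unmarked example is the uncharacterised locus LOC107986736 on chr7:45260015-45260314 (minus strand), with a fold of 137.8, 2 matches and 4 bp from the nearer one to the summit.
CCDC59: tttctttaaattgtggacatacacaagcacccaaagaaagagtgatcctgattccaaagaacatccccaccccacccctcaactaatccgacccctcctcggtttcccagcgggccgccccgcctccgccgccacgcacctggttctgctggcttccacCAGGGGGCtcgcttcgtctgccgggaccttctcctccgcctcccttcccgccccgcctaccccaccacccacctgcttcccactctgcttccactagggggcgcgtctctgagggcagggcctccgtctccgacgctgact
CD8A: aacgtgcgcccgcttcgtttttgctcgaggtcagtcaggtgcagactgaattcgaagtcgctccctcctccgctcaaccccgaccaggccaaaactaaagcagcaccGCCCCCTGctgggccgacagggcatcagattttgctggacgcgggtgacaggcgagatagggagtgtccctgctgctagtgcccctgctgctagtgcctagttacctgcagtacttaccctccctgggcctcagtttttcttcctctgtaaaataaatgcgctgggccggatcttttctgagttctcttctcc
ACBD4: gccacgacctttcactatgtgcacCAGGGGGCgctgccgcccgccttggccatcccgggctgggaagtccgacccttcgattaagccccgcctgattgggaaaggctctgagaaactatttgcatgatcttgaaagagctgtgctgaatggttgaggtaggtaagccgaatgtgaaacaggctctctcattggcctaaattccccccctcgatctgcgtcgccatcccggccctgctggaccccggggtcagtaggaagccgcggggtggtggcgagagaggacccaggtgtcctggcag
LOC107986736: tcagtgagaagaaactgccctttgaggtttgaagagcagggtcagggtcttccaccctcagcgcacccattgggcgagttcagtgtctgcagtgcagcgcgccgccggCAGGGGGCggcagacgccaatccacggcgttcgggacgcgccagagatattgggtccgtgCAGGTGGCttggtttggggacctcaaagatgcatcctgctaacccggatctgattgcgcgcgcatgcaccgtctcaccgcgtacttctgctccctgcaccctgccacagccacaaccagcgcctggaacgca
The CTCF peaks at all 4 of these promoters also overlapped an NKX2-1 peak, while RNA polymerase II peaks were present at CCDC59 and ACBD4 and not at CD8A or LOC107986736. These 4 were chosen for high CTCF fold. In the highest quartile of fold, NKX2-1 overlapped 82.6% of both-mark, 57.2% of H3K4me1-only, 76.5% of H3K27ac-only and 26.5% of unmarked CTCF peaks.

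Most CTCF peaks had neither mark. Both marks were present at 6414 peaks (10.5% [10.3, 10.7]), H3K4me1 alone at 4982 (8.16% [7.94, 8.38]), H3K27ac alone at 4944 (8.10% [7.88, 8.31]) and neither at 44732 (73.2% [72.9, 73.6]). Few peaks sat at the edge of the rule. Overlaps of 50 bp or less made up 559 of the H3K4me1 calls and 278 of the H3K27ac calls, and 484 and 222 further CTCF peaks missed a peak of the mark by less than 50 bp. The peaks just inside and just outside were alike in size, with median widths of 536 and 534.5 bp for H3K4me1 and 500.5 and 508 bp for H3K27ac. The class sizes depend on what counts as marked: both marks were found at 3.89% of CTCF peaks when the CTCF summit itself had to lie in a peak of each mark, and at 18.5% when a peak of each mark within 1 kb was enough.

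Unmarked CTCF peaks were mostly far from either mark. The median gap to the nearest peak of either mark was 14.7 kb, with 7.14% of the unmarked peaks within 1 kb [6.90, 7.38] and 40.6% within 10 kb [40.2, 41.1]. H3K27ac-only peaks, by contrast, had H3K4me1 close by: the median gap to an H3K4me1 peak was 703 bp, and 60.6% lay within 1 kb of one [59.2, 61.9]. H3K4me1-only peaks were farther from H3K27ac, with a median gap of 7002 bp and 44.0% within 5 kb [42.6, 45.4].

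CTCF peaks of the 4 classes differed more in strength than in width. Median widths were 683 bp with both marks [672, 693], 748 bp with H3K4me1 only [736, 763], 587 bp with H3K27ac only [576, 599] and 666 bp with neither [661, 670]. The authors' CTCF fold enrichment over local background, in the same order, had medians of 21.6, 30.7, 14.4 and 24.3, so H3K27ac-only peaks were the weakest and H3K4me1-only peaks the strongest of the 4 by median. Width follows fold closely: over all CTCF peaks the median width was 353, 534, 773 and 945 bp in the 4 quartiles of CTCF fold, lowest to highest. The small excess of both-mark over unmarked width (ratio 1.03) did not keep its direction. It was 1.08 within the second quartile of fold and 1.02 within the top quartile, but 0.734 when the CTCF summit had to lie in a peak of the mark, 0.936 when a peak within 1 kb was enough and 0.975 when all lists were restricted to peaks of −log10 q of at least 10.

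The H3K27ac-only class was the one at gene ends. Of its peaks 54.0% had their summit within 1 kb of where a protein-coding gene starts or ends [52.6, 55.4], against 15.7% of both-mark peaks [14.8, 16.6], 7.33% of H3K4me1-only peaks [6.62, 8.09] and 4.82% of unmarked peaks [4.62, 5.02]. Median distances to a gene end were 822 bp for H3K27ac only, 13.1 kb for both marks, 17.1 kb for H3K4me1 only and 27.8 kb for neither. For the 15813 genes whose strand could be read, start sites and far ends could be told apart (no gene of chromosome 8 is among them). Within 1 kb of a start site lay 11.1% of both-mark peaks, 3.72% of H3K4me1-only peaks, 45.8% of H3K27ac-only peaks and 1.83% of unmarked peaks. Far ends showed no such spread, with 3.07%, 2.43%, 3.69% and 2.19% in the same order. Summits inside a gene body made up 55.2%, 52.5%, 55.3% and 47.1%. Unmarked peaks were lowest, and both-mark peaks exceeded them by 8.05 points [6.74, 9.36].

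The excess of both-mark over unmarked peaks at gene ends was 10.9 points [9.99, 11.8] and rested on the overlap rule. When the CTCF summit had to lie inside a peak of the mark, the excess was −1.14 points. By that rule 2376 peaks had both marks and 50524 neither, and 5.13% and 6.27% of them lay within 1 kb of a gene end. The 50524 include peaks that overlap a mark away from the summit and so are not unmarked by the main rule. With a peak of each mark within 1 kb the excess was 22.2 points.

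**Figure D1:**
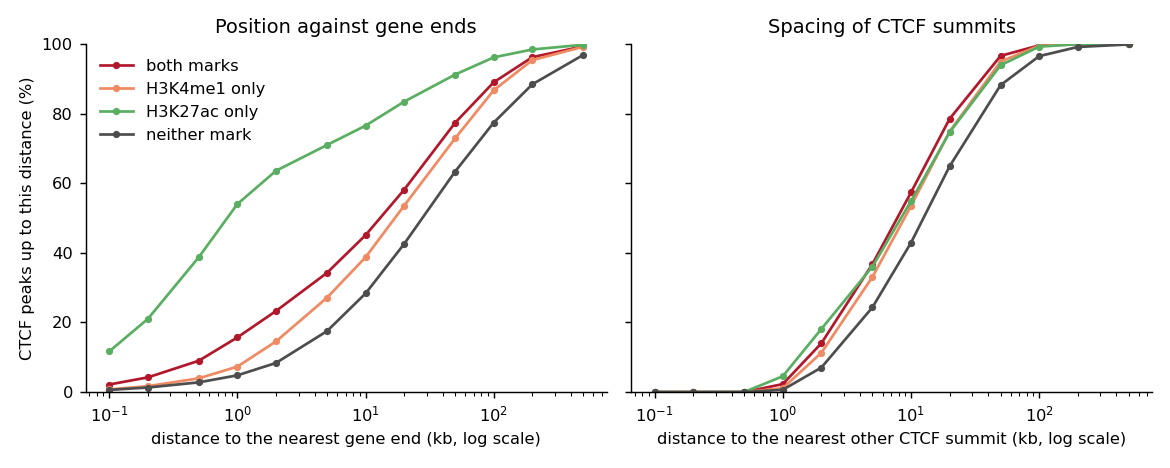
Share of CTCF peaks (y axis, %) up to a given distance (x axis, kb, log scale) from the nearest protein-coding gene end (left) and from the nearest other CTCF summit (right), one line per mark class. The H3K27ac-only line reaches 54.0% at 1 kb from a gene end, against 4.82% for unmarked peaks. On the right the unmarked line lies to the far side of the other 3, with a median of 12.5 kb.

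RNA polymerase II and H3K4me3 followed H3K27ac. RNA polymerase II peaks overlapped 43.2% of both-mark CTCF peaks [42.0, 44.5], 4.22% of H3K4me1-only peaks [3.67, 4.81], 76.3% of H3K27ac-only peaks [75.1, 77.5] and 1.51% of unmarked peaks [1.40, 1.63], against 12.2% of all CTCF peaks. H3K4me3, the mark of active promoters, overlapped 35.2%, 14.1%, 88.3% and 4.46% in the same order. The same order of classes held away from gene ends. Among CTCF peaks more than 5 kb from any gene end the polymerase share was 32.1% of 4217 both-mark peaks [30.7, 33.5], 1.32% of 3631 H3K4me1-only peaks, 55.1% of 1435 H3K27ac-only peaks and 0.466% of 36896 unmarked peaks [0.399, 0.541]. Within 1 kb of a gene end it was 78.9%, 17.8%, 89.7% and 11.2%. Among H3K27ac-only peaks the polymerase share was lower where CTCF was stronger, at 83.1%, 80.7%, 71.1% and 62.2% from the lowest to the highest quartile of CTCF fold. The share of these peaks within 1 kb of a gene end moved with it, at 59.7%, 58.5%, 51.9% and 39.2%, and its part in the result was not tested. A polymerase peak covered the CTCF summit itself at 32.6% of both-mark peaks and 66.8% of H3K27ac-only peaks. The summits of the 2 overlapping peaks were seldom close. Where a both-mark CTCF peak overlapped polymerase, the polymerase summit lay within 100 bp of the CTCF summit in 14.0% of cases [12.7, 15.3], with a median distance of 377 bp.

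NKX2-1 was far commoner at marked CTCF peaks. Its peaks overlapped 75.5% of both-mark peaks [74.4, 76.5], 47.6% of H3K4me1-only peaks [46.2, 48.9], 65.1% of H3K27ac-only peaks [63.8, 66.5] and 11.3% of unmarked peaks [11.0, 11.6]. The excess of both-mark over unmarked peaks was 64.2 points [63.1, 65.3]. It was 67.3 points beyond 5 kb from gene ends and 62.0 points when the CTCF summit had to lie in a peak of each mark. The forkhead factors FOXA1 and FOXA2, which open closed chromatin in endoderm-derived cells, ranked the classes differently from polymerase. FOXA1 overlapped 44.9%, 27.4%, 22.1% and 6.34% of peaks with both marks, H3K4me1 only, H3K27ac only and neither, and FOXA2 overlapped 47.2%, 31.2%, 23.1% and 7.72%. The AP-1 subunit c-Jun was mostly a feature of both-mark peaks, with shares of 28.1%, 8.17%, 7.46% and 0.445%. SOX2, a lineage factor of airway and foregut, overlapped 7.23%, 2.65%, 1.58% and 0.127%. The acetyltransferase EP300 went with acetylation, at 9.81%, 0.984%, 13.7% and 0.0805%. None of these 8 other NCI-H2087 lists had a peak at 10.2% of both-mark, 33.7% of H3K4me1-only, 4.29% of H3K27ac-only and 78.9% of unmarked CTCF peaks.

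**Figure D2:**
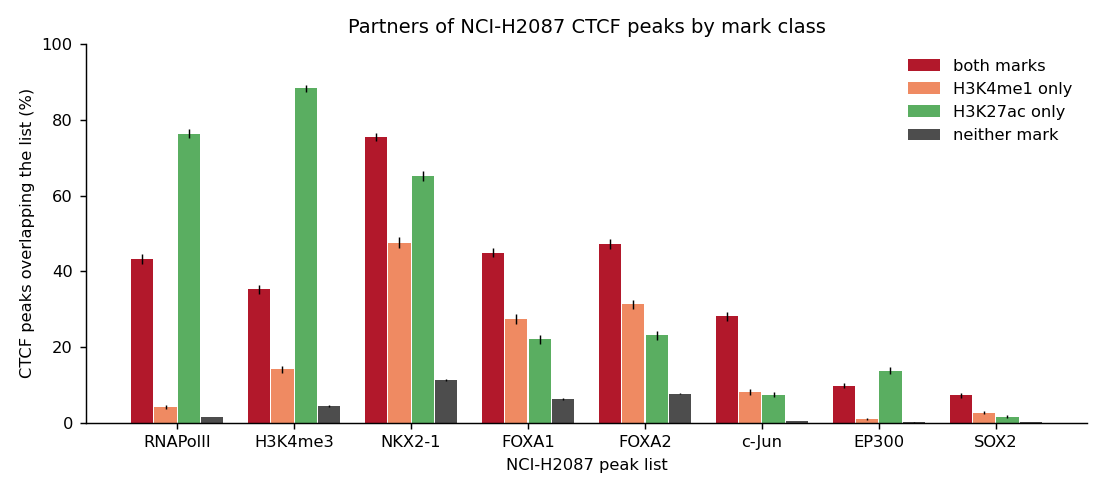
Share of CTCF peaks (y axis, %) of each mark class that overlap a peak of 8 other NCI-H2087 lists (x axis). Bars are shares in 1 library and error bars exact 95% intervals. H3K27ac-only peaks are highest for RNA polymerase II (76.3%) and H3K4me3 (88.3%), both-mark peaks are highest for NKX2-1 (75.5%), FOXA1, FOXA2, c-Jun and SOX2, and unmarked peaks are lowest for every list.

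The NKX2-1 peaks at unmarked CTCF sites lay closer to the CTCF summit than those at marked sites. In both-mark overlaps the NKX2-1 summit was within 100 bp of the CTCF summit in 41.2% of 4842 cases [39.9, 42.6], with a median distance of 141 bp. In H3K4me1-only and H3K27ac-only overlaps the medians were 72 and 152 bp. In unmarked overlaps 83.1% of 5034 NKX2-1 summits were that close [82.0, 84.1], with a median of 39 bp. The median NKX2-1 fold was 9.78 at both-mark sites, 7.43 at H3K4me1-only sites, 7.62 at H3K27ac-only sites and 6.58 at unmarked sites, against 8.55 at NKX2-1 peaks away from CTCF. FOXA1 summits were within 100 bp in 29.9% of both-mark overlaps and 65.1% of unmarked overlaps.

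NKX2-1 was commoner at the strongest CTCF peaks in every class. At both-mark sites NKX2-1 overlapped 71.9% of CTCF peaks in the lowest quartile of CTCF fold, 72.8% in the second, 74.7% in the third and 82.6% in the highest. The 4 shares were 41.5%, 39.9%, 46.1% and 57.2% at H3K4me1-only sites and 62.7%, 60.9%, 64.3% and 76.5% at H3K27ac-only sites. At unmarked sites they were 3.19%, 3.44%, 11.8% and 26.5%. Unmarked CTCF peaks with NKX2-1 had a median CTCF fold of 55.0, against 21.0 for those without. Stronger peaks are also wider, with medians of 348, 526, 770 and 945 bp over the 4 quartiles of unmarked peaks. Counting only NKX2-1 peaks that cover the CTCF summit, a rule that does not use the width of the CTCF peak, gave 2.57%, 2.70%, 11.2% and 25.7%. At unmarked sites FOXA1 had a shallower gradient, 3.07%, 3.88%, 7.86% and 10.4%. RNA polymerase II stayed there between 1.46% and 1.59%, and c-Jun stayed between 0.379% and 0.554%. Marked classes differed from this between the lowest and the highest quartile. FOXA1 fell from 48.3% to 41.2% with both marks and from 30.7% to 24.3% with H3K4me1 only, and rose from 21.2% to 24.9% with H3K27ac only. In the same order c-Jun fell from 36.7% to 20.9%, from 12.9% to 4.71% and from 8.55% to 7.99%.

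The same gradient was present in the NKX2-1 lists of the other 3 lines, laid over the CTCF peaks of NCI-H2087. From the lowest to the highest quartile of CTCF fold, unmarked peaks overlapped NKX2-1 in 5.43%, 9.12%, 19.5% and 30.2% of cases in NCI-H358, in 5.28%, 7.65%, 17.7% and 30.9% in NCI-H441, and in 6.62%, 11.2%, 32.2% and 51.3% in HCC364. The marks of the same lines were also commoner at the strongest unmarked peaks, apart from H3K27ac in NCI-H441. In the order NCI-H358, NCI-H441 and HCC364, H3K4me1 overlapped 11.6%, 8.77% and 18.4% of unmarked peaks in the highest quartile and 6.35%, 5.25% and 7.91% in the lowest. H3K27ac overlapped 3.30%, 1.91% and 8.05% in the highest and 2.44%, 1.94% and 4.16% in the lowest. Of the both-mark CTCF peaks with NKX2-1 in NCI-H2087, 96.2% had NKX2-1 in at least 1 other line [95.6, 96.7] and 63.6% in all 3. The corresponding shares for unmarked peaks with NKX2-1 were 91.1% [90.3, 91.9] and 46.0%. Of CTCF peaks without NKX2-1 in NCI-H2087, 53.8% of both-mark and 25.1% of unmarked peaks had it in at least 1 other line. Over all CTCF peaks, 55.2% had NKX2-1 in none of the 3 other lines and 16.8% in all 3. Whether CTCF binds these sites in the other lines was not measured, and no cause of the gradient was tested.

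**Figure D3:**
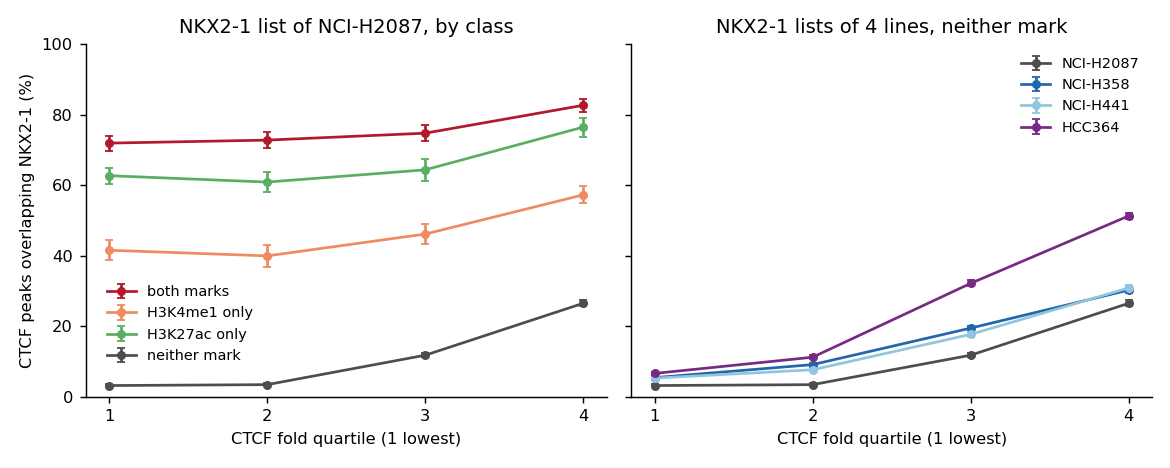
Share of CTCF peaks overlapping an NKX2-1 peak (y axis, %) by quartile of CTCF fold enrichment (x axis, group 1 is the lowest), with exact 95% intervals. Left, the NKX2-1 list of NCI-H2087 for the 4 mark classes. Right, the NKX2-1 lists of the 4 lines at unmarked peaks, which run between 26.5% and 51.3% in the top quartile and between 3.19% and 6.62% in the bottom quartile.

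Coverage by both marks was lower at the CTCF summit than at 300 to 400 bp from it. Over all CTCF summits, H3K4me1 peaks covered 8.40% of summits and 12.4% of positions 400 bp away, and H3K27ac peaks covered 12.8% of summits and 14.3% of positions at 300 bp. Within the classes the coverage near the summit is partly set by the overlap rule and is given as a description. In the both-mark class, H3K4me1 peaks covered 48.9% of the CTCF summits and 68.1% of the positions 400 bp away, and H3K27ac peaks covered 65.9% of the summits and 74.3% of the positions 300 bp away. In the H3K4me1-only class, H3K4me1 covered 40.0% of summits and 57.1% of positions at 300 bp. In the H3K27ac-only class H3K27ac covered 72.1% of summits and 77.3% at 200 bp. H3K4me1 there is 0 at the summit by the rule and was highest, 26.6%, at 1.5 kb. Over all summits of other factors the dip was present too. H3K4me1 covered 36.4% of FOXA1 summits and 46.2% of positions 300 bp from them, and 37.9% and 50.6% for NKX2-1 summits. NKX2-1 had no dip and was highest at the CTCF summit, covering 66.0% of both-mark summits and 10.6% of unmarked summits, against 25.1% and 0.490% of positions at 500 bp. The H3K27ac peaks at both-mark CTCF sites had a median width of 1772 bp and a median fold of 11.1, against 944 bp and 7.18 over all H3K27ac peaks. The H3K4me1 peaks had a median width of 1289 bp at both-mark sites and 704.5 bp at H3K4me1-only sites, against 798 bp over all H3K4me1 peaks.

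**Figure D4:**
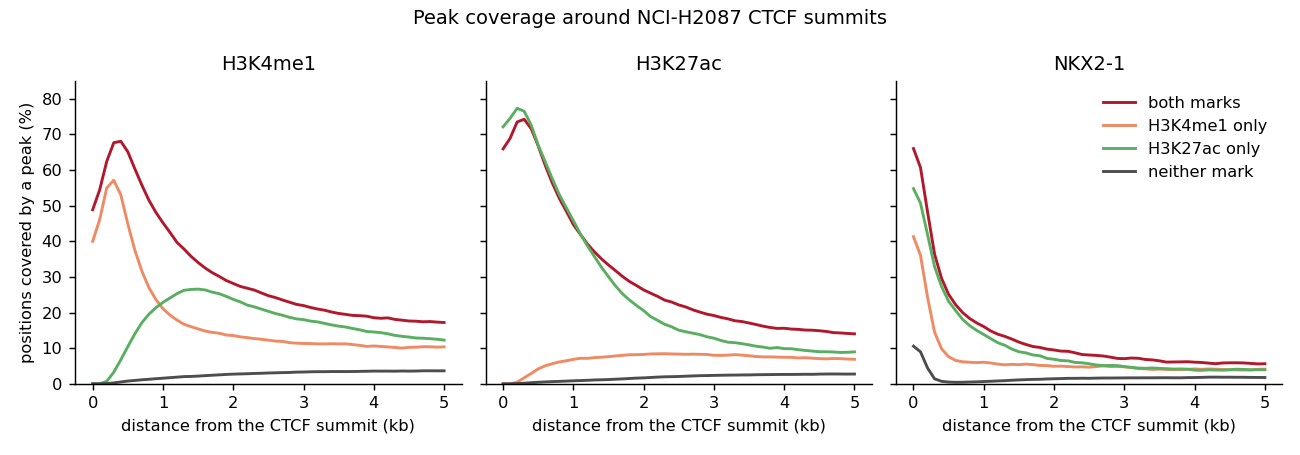
Share of positions covered by a peak (y axis, %) against distance from the CTCF summit (x axis, kb, both sides pooled) for H3K4me1, H3K27ac and NKX2-1, one line per mark class. H3K4me1 and H3K27ac peak 200 to 400 bp from the summit in the classes defined by overlap with them, while NKX2-1 is highest at the summit itself.

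Where a mark was present near a CTCF site, it often lay on 1 side. Counting H3K27ac peaks between 0.5 and 10 kb to each side, 1 flank alone carried the mark at 36.2% of the both-mark peaks that had it on any flank [35.0, 37.4], 73.3% of H3K4me1-only peaks [71.6, 74.9], 37.1% of H3K27ac-only peaks [35.7, 38.5] and 84.2% of unmarked peaks [83.5, 84.8]. Over all CTCF peaks it was 62.3%, against 43.1% for FOXA1 peaks without CTCF and 38.5% for NKX2-1 peaks without CTCF. These sets also differ in how often the mark was near at all: neither flank had H3K27ac at 58.8% of all CTCF peaks, 41.6% of those FOXA1 peaks and 31.5% of those NKX2-1 peaks. No H3K27ac peak lay on either flank of 3.13% of both-mark peaks and 74.5% of unmarked peaks. The part of this in the one-sided shares was not tested. For H3K4me1 the shares were 21.2%, 49.1%, 40.2% and 77.5%. For both marks the differences between classes are partly set by the overlap rule. A mark peak that overlaps a CTCF peak can itself reach past 0.5 kb from the summit. The H3K27ac peaks at both-mark sites had a median width of 1772 bp.

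Marked CTCF peaks stood closer together. The median distance to the nearest other CTCF summit was 7984 bp with both marks [7669, 8286], 9127 bp with H3K4me1 only, 8596 bp with H3K27ac only and 12536 bp with neither [12362, 12710]. The ratio of both-mark to unmarked medians was 0.637, and 0.668 among peaks more than 5 kb from gene ends. A neighbour within 5 kb was present for 36.7% of both-mark, 33.1% of H3K4me1-only, 36.0% of H3K27ac-only and 24.3% of unmarked peaks. Neighbours within 1 kb were commonest in the H3K27ac-only class, at 4.55% against 0.668% of unmarked peaks. Neighbours tended to share their class, which the overlap rule partly sets, since 1 mark peak can cover several CTCF peaks. The next CTCF peak along the chromosome had both marks after 25.8% of both-mark peaks [24.7, 26.9] and after 7.22% of unmarked peaks [6.98, 7.47]. For pairs within 5 kb these shares were 39.4% and 6.96%. An unmarked peak was followed by another in 79.4% of cases. Among all CTCF peaks, 10.5% had both marks and 73.2% were unmarked.

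Runs of like CTCF peaks differed in length by class. Both-mark peaks formed runs of up to 9, H3K4me1-only peaks up to 5, H3K27ac-only peaks up to 11 and unmarked peaks up to 85. The longest both-mark run held 9 peaks over 139 kb of chromosome 22, from MYH9, the heavy chain of non-muscle myosin IIA, to TXN2, mitochondrial thioredoxin. Along it the CTCF folds were 6.34, 17.1, 12.4, 5.15, 8.80, 6.35, 6.09, 7.43 and 92.7. All but the last of these lie below the median fold of the class. NKX2-1 overlapped 7 of the 9 and RNA polymerase II 4, near the 75.5% and 43.2% of all both-mark peaks. The next 2 runs held 8 peaks each on chromosome 5, one over 79.7 kb from SLC22A5, the carnitine transporter, to IRF1, an interferon-induced transcription factor, and one over 78.2 kb at ABLIM3, an actin-binding protein. NKX2-1 overlapped 5 and 6 of their peaks. The run of 11 H3K27ac-only peaks covered 145 kb of chromosome 1 up to MTMR11. RNA polymerase II overlapped 10 of them, against 76.3% of all H3K27ac-only peaks.

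The longest unmarked runs crossed regions of many megabases. A run of 85 lay on chromosome 18 between TNFRSF11A and TIMM21 (11794 kb), a run of 85 on chromosome X between EIF2S3 and H2AL3 (13942 kb), and a run of 84 on chromosome 4 between FAM13A and STPG2 (9089 kb). NKX2-1 overlapped 3, 1 and 8 of their peaks, and RNA polymerase II overlapped 0, 1 and 0. The shares over all unmarked peaks were 11.3% for NKX2-1 and 1.51% for RNA polymerase II. Chromosomes 18 and X were also the least marked as wholes. Both marks were present at 4.21% of the 951 CTCF peaks of chromosome 18 and 1.51% of the 1657 of chromosome X, and neither mark at 88.0% and 89.3%. Chromosome 17 had the highest both-mark share, 14.1%, and chromosome 19, the most gene-dense, the highest H3K27ac-only share, 15.2%, with 6.63% carrying both marks. On chromosome X the H3K27ac-only share, 8.27%, was near that of the genome, 8.10%. Chromosome 18 holds 3.37 protein-coding genes per megabase, chromosome X 5.45 and chromosome 19 24.8, and the part of gene density or copy number in these shares was not tested.

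Named loci show the classes at single genes. The strongest both-mark CTCF peak within 1 kb of a gene end was at DHX8, a splicing helicase, with a CTCF fold of 181.3 at 195 bp from its start site on chromosome 17. That peak also carried NKX2-1 (fold 26.6), FOXA1 (19.3), RNA polymerase II (23.3) and H3K4me3 (153.5). The next were at TMEM141 (152.1), DSCAML1, a neuronal adhesion molecule (142.7), SLC34A3, a renal phosphate transporter (137.8), and CLPB, a mitochondrial disaggregase (136.2). DSCAML1 and SLC34A3 had no polymerase peak there. The strongest H3K4me1-only peaks were at NPAS4, an activity-dependent transcription factor of neurons (202.7), MYO7A, a myosin of inner ear hair cells (175.9), SERPINA12 (147.4), LRP1 (141.03) and TRAF4, a signalling adaptor (133.1). Only TRAF4 of these had RNA polymerase II and only MYO7A had H3K4me3.

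The 5 strongest H3K27ac-only peaks at gene ends were at DBN1, an actin-binding protein (157.0), CNEP1R1 (139.5), TMEM170A (127.7), MED4, a Mediator subunit (127.3), and DDX18, an RNA helicase (127.2). All 5 had RNA polymerase II, with folds between 6.54 and 34.8, and H3K4me3, with folds between 75.7 and 206.5. The 5 strongest unmarked peaks were at GPRC5B (140.3), RADIL (138.1), KLHDC8A (130.1), FGF18, a growth factor (129.9), and NLRC5, the activator of MHC class I genes (129.5). None of them had RNA polymerase II, FGF18 alone had H3K4me3 (fold 4.45), and RADIL, KLHDC8A and NLRC5 had NKX2-1, with folds of 11.5, 5.15 and 6.88. Among all peaks within 1 kb of a gene end, RNA polymerase II overlapped 89.7% of H3K27ac-only peaks and 11.2% of unmarked peaks. NKX2-1 overlapped 13.4% of those unmarked peaks.

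Assigning each CTCF peak to the nearest protein-coding gene end within 50 kb placed 41451 peaks (67.9%) at 15547 genes. The gene with most both-mark peaks was SDC1, encoding the epithelial heparan sulfate proteoglycan syndecan-1, with 9 of 12. Of these 9, 7 had NKX2-1, near the 75.5% of all both-mark peaks. ABLIM3, HS1BP3 and LMNA (lamin A/C) followed with 7 each and CAPN2 (calpain-2), CUEDC1, HPCAL1 and IDS with 6 each. The genes with most unmarked peaks were IZUMO2, a sperm protein gene, with 16 of 16, AMPH (amphiphysin, a synaptic vesicle protein) with 14 of 15, and BSPH1, COL13A1 and NECTIN1 with 12 each. Counting CTCF peaks of every class, RNA polymerase II overlapped 6 of the 12 at SDC1, 0 of the 16 at IZUMO2 and 0 of the 15 at AMPH. RNA polymerase II overlapped 12.2% of all CTCF peaks, 43.2% of all both-mark peaks and 1.51% of all unmarked peaks.

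Over all 19974 protein-coding genes, 31.5% had a CTCF summit within 1 kb of an end: 5.64% had a both-mark one, 1.98% an H3K4me1-only one, 15.2% an H3K27ac-only one and 11.2% an unmarked one. The gene lists below are read against these shares and against the classes of all CTCF peaks within 50 kb of a gene end, of which 12.0% had both marks, 68.4% neither and 28.7% NKX2-1. In the lung and epithelial identity list, 9 of 16 genes had a CTCF summit at an end, 1 both-mark (KRT18), 6 H3K27ac-only and 2 unmarked (SFTPC and ABCA3). Of 110 CTCF peaks within 50 kb of these genes, 30.0% had both marks, 40.0% neither and 53.6% NKX2-1. KRT7, a simple epithelial keratin, had 14 CTCF peaks within 50 kb, 9 with both marks and 0 unmarked. NKX2-1 itself had 8, of which 3 had both marks, 2 H3K27ac only and 3 neither. Of these, 2 both-mark peaks (CTCF folds 4.05 and 106.3) and the 2 H3K27ac-only peaks (21.5 and 25.1) overlapped H3K27ac of fold 36.9, and 2 strong unmarked peaks (77.5 and 110.7) followed towards NKX2-8, a related homeobox gene. At FOXA1, 6 consecutive H3K27ac-only peaks lay within 8.91 kb under 1 H3K27ac peak of fold 56.5, with CTCF folds of 13.4, 3.12, 79.0, 3.78, 53.4 and 4.34. All 6 overlapped NKX2-1, against 65.1% of all H3K27ac-only peaks. These neighbours are not independent: those of CTCF fold 3.78 and 53.4 overlapped NKX2-1 of the same fold, 7.95.

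The housekeeping genes, of which 9 are reported, had values near those of the lung list: 27.3% of 44 CTCF peaks within 50 kb had both marks, 45.5% neither and 45.5% NKX2-1. CTCF summits lay at the ends of 6 of the 9, with 2 genes having a both-mark one, 5 an H3K27ac-only one and 0 an unmarked one. Among the 13 genes of CTCF and cohesin itself, 6 had a CTCF summit at an end, H3K27ac-only at STAG1, STAG2, NIPBL, PDS5A and ESCO1 and unmarked at CTCFL, the testis paralogue of CTCF. Of their 71 peaks within 50 kb 4.23% had both marks and 70.4% neither. Imprinted genes had summits at 6 of 14, unmarked at 4 of them (H19, IGF2, GNAS and PLAGL1), and 76.0% of 75 peaks within 50 kb had neither mark. At H19, whose neighbouring imprinting control region is a known CTCF insulator, all 7 peaks within 50 kb were unmarked, with folds of 8.35 to 46.9. Of these, 0 overlapped NKX2-1, against 11.3% of all unmarked peaks. HOX clusters had summits at 11 of 39 genes (1 both-mark, 1 H3K4me1-only, 4 H3K27ac-only, 6 unmarked, 1 gene having 2 classes), and 8.33% of their 48 peaks had both marks. HOXC4, HOXC5 and HOXC6 share an annotated end and so count the same H3K27ac-only peak (fold 7.54). Markers of other lineages had summits at 4 of 14 genes, and 7.25% of 69 peaks had both marks and 73.9% neither. NKX2-1 overlapped 34.8% of these 69 peaks. Its shares were 29.3% for imprinted genes, 29.2% for HOX clusters and 19.7% for the genes of CTCF and cohesin. Lists of this size give a description only.

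The marks of the other 3 lines fell on the NCI-H2087 classes to different degrees. At CTCF peaks with H3K27ac only in NCI-H2087, H3K27ac was present in 84.6% ± 0.899 (SD, n = 3 lines) in NCI-H358, NCI-H441 and HCC364. At both-mark peaks it was present in 71.6% ± 2.60, at H3K4me1-only peaks in 18.5% ± 6.97, and at unmarked peaks in 3.49% ± 1.89. H3K4me1 was present at 79.0% ± 7.89 of both-mark peaks, 59.4% ± 2.23 of H3K4me1-only peaks, 23.1% ± 6.07 of H3K27ac-only peaks and 8.76% ± 2.82 of unmarked peaks. The order of the classes was the same in each of the 3 lines for both marks. All 3 lines had H3K27ac at 73.0% of H3K27ac-only peaks [71.7, 74.2] and 51.0% of both-mark peaks [49.7, 52.2], and all 3 had H3K4me1 at 31.5% of H3K4me1-only peaks [30.2, 32.8]. Over all CTCF peaks, all 3 lines had H3K27ac at 12.0% and H3K4me1 at 10.2%. Of the unmarked peaks, 79.0% had neither mark in any of the 3 other lines [78.6, 79.4], against 59.5% of all CTCF peaks. NKX2-1 of the other lines was present at 69.6% ± 4.68 of both-mark peaks, 47.6% ± 6.03 of H3K4me1-only peaks, 62.2% ± 5.09 of H3K27ac-only peaks and 19.04% ± 5.61 of unmarked peaks (SD, n = 3 lines). HCC364 had the longest lists of both marks and the highest shares at unmarked peaks, 11.8% for H3K4me1 and 5.60% for H3K27ac.

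**Figure D5:**
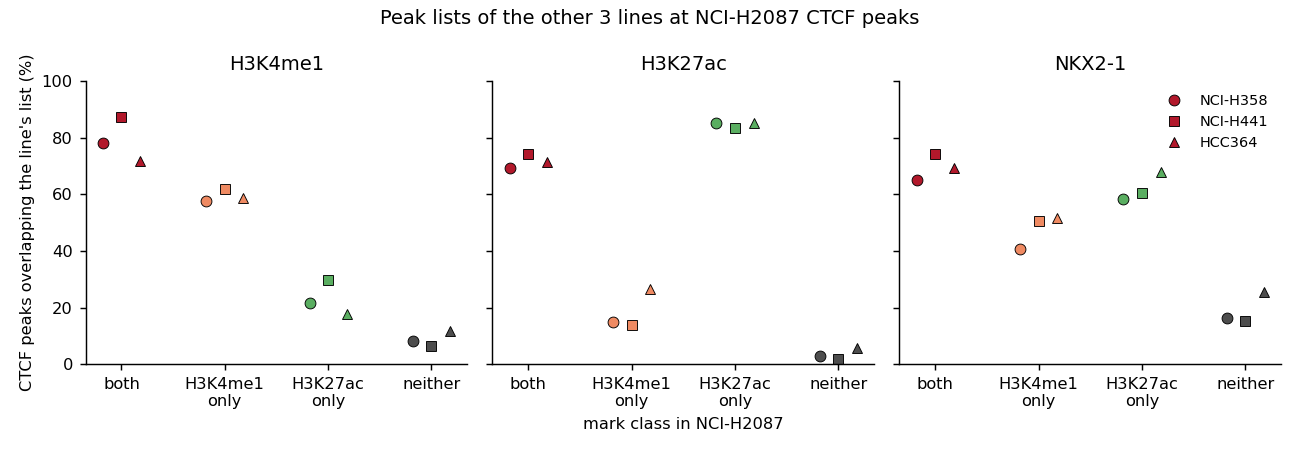
Share of NCI-H2087 CTCF peaks (y axis, %) that overlap a peak of H3K4me1, H3K27ac or NKX2-1 in 3 other lines (symbols), by their mark class in NCI-H2087 (x axis). For H3K27ac the lines lie between 83.6% and 85.2% at H3K27ac-only peaks and between 1.93% and 5.60% at unmarked peaks.

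Seen from the partner lists, CTCF was commonest at H3K4me3 peaks. It overlapped 37.8% of 22512 H3K4me3 peaks, 26.3% of 26019 RNA polymerase II peaks, 21.1% of 51482 H3K27ac peaks, 20.6% of 75657 NKX2-1 peaks, 12.8% of 91807 H3K4me1 peaks and 12.1% of 67706 FOXA1 peaks. Median peak widths of these lists, in the same order, were 1548, 811, 944, 495, 798 and 457 bp. The part of width in this ranking was not tested. H3K27ac peaks with CTCF were wider, with a median of 1561 bp against 817 bp without it, and the part of width in the overlap was not tested. NKX2-1 peaks were of like width with and without CTCF, 477 and 499 bp, and slightly weaker with it, with median folds of 7.51 and 8.55.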

How the data were processed

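The authors deposited 1 MACS2 narrowPeak list per library. The submitters' processing notes name hg38, MACS2 (versions 2.1.1 and 2.2.7.1) and, without their roles, bedtools, SAMtools 1.9, Bowtie2 2.2.9 and Trimmomatic 0.36. In the deposited lists, fold is a linear ratio of the summit over local background, and the other scores are −log10 p and −log10 q, at least 3 for q. The summit is the deposited offset from the peak start, 1 per peak. Use of the inputs as controls is not stated. Read depth is unknown, and absence of a call does not show absence of binding.

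Peaks on chromosomes 1 to 22 and X were kept (61072 of 61248 for CTCF), and overlaps, distances and intervals were computed with Python 3.11.15, numpy 2.4.6, pandas 2.3.3 and scipy 1.17.1, after checks on simulated data. Gene ends and promoter sequences came from RefSeq (GRCh38.p14), and strand was known for 15813 of 19974 genes. Intervals of differences combine the exact intervals of both shares. The members and lists were chosen with earlier results of these data known. Genes named were, per class, those at the 5 CTCF peaks of highest fold within 1 kb of a gene end, the 5 with most both-mark and most unmarked peaks, those at the ends of the 3 longest runs, and members of the gene lists, where 1 housekeeping gene is not reported here. The printed promoters, MTMR11 and the closer accounts of the NKX2-1, KRT7, FOXA1 and H19 loci were chosen after their values were seen.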

Additional observations from a re-analysis of the deposited data

How the results depend on the processing

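The 9 class results were recomputed under other rules, and the alternative in which a partner peak covers the CTCF summit was added after seeing the data. With the CTCF summit required inside a peak of the mark, the shares were 3.89% for both marks, 4.50% for H3K4me1 only, 8.88% for H3K27ac only and 82.7% for neither. With a peak of the mark within 1 kb they were 18.5%, 9.30%, 4.17% and 68.0%, and with −log10 q of at least 10 in every list 7.06%, 4.58%, 8.76% and 79.6%. Both-mark over unmarked width was 0.734, 0.936 and 0.975 under these 3 rules, below 1 and so reversed, and 1.08 in the second quartile of CTCF fold. The gene-end excess of both-mark over unmarked peaks was −1.14 points by the summit rule, reversed, 22.2 points within 1 kb, 7.51 points with the q limit and 16.7 points with a 5 kb window. The cause of these reversals was not tested.

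The RNA polymerase II excess was 35.2 points by the summit rule, 46.9 within 1 kb, 37.3 with the q limit, 31.6 beyond 5 kb from gene ends and 31.5 when polymerase had to cover the CTCF summit. The NKX2-1 excess was 62.0, 56.1, 62.2, 67.3 and 55.5 points under the same 5 settings, and 69.3 and 56.1 points in the second and top quartiles of CTCF fold. The spacing ratio was 0.684 by the summit rule and 0.616 to 0.668 under the 3 other settings. No paired analysis was possible because each line and antibody has 1 library. The part of depth and antibody in the length of each list was not tested, and the q limit kept 51.8% of H3K4me1 and 97.4% of CTCF peaks.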
